A study of Mus musculus with 8 samples.

Results

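The genes described here encode the enzymes that turn glucose into pyruvate, the lactate dehydrogenases and the E1 subunits of pyruvate dehydrogenase on either side of pyruvate, and the carriers that move glucose and lactate through the cell membrane. They were taken by gene symbol, and all 38 were found among the 19906 protein-coding genes of the deposited table. Of the 38, 8 are germline isozymes, 11 are somatic paralogs that catalyse the same reactions, and 19 are enzymes and carriers placed in neither class. Among these 19, Slc2a3, Slc16a7 and Pgam2 are forms used in sperm or testis. RNA was sequenced from whole testes of 2-month-old mice, with 4 animals labelled Tmem232-/- and 4 labelled Tmem232+/+ and 1 library per animal. The Tmem232-/- animals came from a purchased line that carries a CRISPR-Cas9 deletion of several Tmem232 exons in all cells, made in C57BL/6 oocytes, and the Tmem232+/+ animals are the wild type. The comparison asks how the transcriptome of the testis differs where Tmem232, which encodes a transmembrane protein, is deleted.

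Glycolysis cleaves each glucose into a pair of pyruvates with a net gain of ATP. In most tissues it runs on enzymes that every cell makes. Meiotic and haploid male germ cells replace or supplement several of these with isozymes of their own, some encoded by retrogenes, which are intronless copies made from the messenger RNA of a parent gene. In mouse sperm several of the isozymes are fixed to the fibrous sheath of the flagellum, and their ATP drives motility.

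Library totals ran from 15428421 to 16350871 counts, and libraries of the same label correlated with each other at a mean Pearson's r of 0.983 to 0.988 across genes, so that no library stood apart. CPM are counts scaled to library size, with each library size adjusted by its TMM factor from edgeR. Tmem232 itself (Entrez ID 381107) was at 148, 132, 123 and 122 CPM in replicates 1 to 4 labelled Tmem232-/-. It was at 111, 106, 108 and 109.9 CPM in replicates 1 to 4 labelled Tmem232+/+. The gene count, which also holds the exons outside the deletion, was higher where the labels say that the gene is deleted (log2 fold change 0.27, SE 0.072, adjusted p = 0.034), so it could not check the labels. The libraries are therefore called by their labels throughout. Gene positions are those of GENCODE vM21 on GRCm38. Levels are given as CPM within a gene and as FPKM, fragments per kilobase of transcript at equal library size, between genes. A gene was called at an adjusted p under 0.05 in the edgeR quasi-likelihood test over 15787 genes, and "higher" or "lower" refers to the libraries labelled Tmem232-/- relative to those labelled Tmem232+/+.

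Regions upstream of 5 of these genes are shown because they belong to the germline isozymes and the hexokinase that the results turn on. Gapdhs, Aldoart2, Pgk2 and Hk1 were called higher, and Ldhc was not called. Each run holds 250 bases before and 50 bases after an annotated start of the gene in RefSeq on GRCm38.p6, read 5′ to 3′ along the gene. Capitals mark TGACG or TGACATCA and their reverse complements CGTCA and TGATGTCA. TGACG is the core of the cAMP response element, which CREM binds in haploid germ cells. TGACATCA was searched after these windows had been seen.
Gapdhs (chr7:30743632-30743931, minus strand): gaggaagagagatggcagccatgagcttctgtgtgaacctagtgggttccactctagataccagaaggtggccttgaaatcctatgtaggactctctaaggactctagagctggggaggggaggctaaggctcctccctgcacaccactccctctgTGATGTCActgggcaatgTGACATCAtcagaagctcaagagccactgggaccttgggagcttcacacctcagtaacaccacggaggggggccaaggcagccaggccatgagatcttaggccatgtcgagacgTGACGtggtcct
Gapdhs (chr7:30739358-30739657, minus strand): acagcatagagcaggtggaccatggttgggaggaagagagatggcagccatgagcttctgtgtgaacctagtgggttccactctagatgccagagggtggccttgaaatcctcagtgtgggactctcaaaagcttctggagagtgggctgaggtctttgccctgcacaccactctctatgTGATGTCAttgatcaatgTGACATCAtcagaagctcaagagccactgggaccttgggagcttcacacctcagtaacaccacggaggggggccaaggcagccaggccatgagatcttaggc
Hk1 (chr10:62379859-62380158, minus strand): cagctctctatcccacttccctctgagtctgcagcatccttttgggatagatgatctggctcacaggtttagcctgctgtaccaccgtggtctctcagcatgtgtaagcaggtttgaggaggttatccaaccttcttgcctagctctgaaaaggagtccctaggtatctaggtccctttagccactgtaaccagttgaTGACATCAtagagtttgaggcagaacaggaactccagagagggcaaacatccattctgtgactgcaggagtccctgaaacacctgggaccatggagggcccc
Pgk2 (chr17:40208560-40208859, minus strand): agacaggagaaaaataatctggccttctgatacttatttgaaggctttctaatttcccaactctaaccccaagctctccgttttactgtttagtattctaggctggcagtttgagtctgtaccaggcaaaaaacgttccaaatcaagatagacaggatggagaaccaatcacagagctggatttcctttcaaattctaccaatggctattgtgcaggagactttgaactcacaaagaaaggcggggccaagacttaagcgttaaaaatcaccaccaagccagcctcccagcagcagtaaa
Aldoart2 (chr12:55564955-55565254, plus strand): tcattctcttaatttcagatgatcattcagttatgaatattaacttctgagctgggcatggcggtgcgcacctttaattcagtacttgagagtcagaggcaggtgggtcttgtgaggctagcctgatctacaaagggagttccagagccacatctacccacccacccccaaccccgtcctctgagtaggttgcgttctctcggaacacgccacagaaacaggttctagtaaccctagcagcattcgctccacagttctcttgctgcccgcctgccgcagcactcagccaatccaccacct
Ldhc (chr7:46861013-46861312, plus strand): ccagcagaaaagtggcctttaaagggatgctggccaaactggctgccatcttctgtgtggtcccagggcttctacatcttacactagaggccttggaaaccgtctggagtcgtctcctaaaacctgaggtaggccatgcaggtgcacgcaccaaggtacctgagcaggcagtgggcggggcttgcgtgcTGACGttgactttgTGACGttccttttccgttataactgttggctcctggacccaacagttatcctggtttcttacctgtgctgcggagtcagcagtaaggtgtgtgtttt

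Of the 38 genes, 34 had 1 or more windows in the RefSeq table, 48 in all, and Aldoart1, Eno1b, Slc2a3 and Slc16a7 had no entry. TGACATCA, on either strand, was in 4 of the 48 windows (8.3%) and in 3.6% of the 32851 windows of the table. Gapdhs has a pair of these motifs, which begin 94 and 76 bases before the start of the first window printed above and 70 and 52 bases before that of the second. These windows of Gapdhs lie 4274 bases apart and are near-copies of each other, identical at 248 of 279 aligned positions (88.9%). Hk1 has 1 at 52 bases in the window printed and none in the window of its other annotated start, and Pgam2, which encodes the muscle form of phosphoglycerate mutase, has 1 at 225 bases. TGACG, on either strand, was in 8 of the 48 windows (16.7%) and in 20.8% of all windows, and the printed Ldhc window holds it at 61 and 47 bases before the start, while the window of the other annotated start of Ldhc holds neither TGACG nor TGACATCA. The palindrome TGACGTCA, which contains TGACG on both strands, was in 1 window, that of Ldha, and in 1.8% of all windows. The windows of Pgk2 and Aldoart2 hold neither TGACG nor TGACATCA. CCAAT was in 39.6% of the 48 windows against 37.4% of all, GGGCGG in 41.7% against 35.7%, and TATAAA in 10.4% against 13.6%, each on either strand. These matches describe letters in a window and are not binding sites.

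Of the 38 genes, 36 passed the filter on low counts, and 8 of the 36 (22.2%) were higher in edgeR and limma-voom and 9, with Tpi1, in DESeq2, while 0 were lower with any of these tools. Over all tested genes 10.3% were called higher and 1.46% lower, so the share of higher genes lay above that background. The 8 were Gapdhs, Aldoart1, Aldoart2, Pgk2, Eno1b, Slc16a7, Hk1 and Gpi1. Eno1b, Gapdhs, Aldoart1 and Aldoart2 were higher by 2-fold or more, a call that 5.48% of all tested genes met in this direction and 0.114% in the other. The log2 fold changes of the 28 genes that were not called lay between -0.27 and 0.29. An unadjusted p under 0.05 in edgeR was reached by 10 genes, the 8 above with Tpi1, which was higher, and Slc2a1, which was lower. The genes that failed the filter were Hkdc1, a hexokinase-like gene with 0 to 2 counts per library, and Pklr, the pyruvate kinase of liver and red blood cells with 0 to 5 counts. A count of 0 allows up to 3 counts, so no fold change is given for either.

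**Figure D1:**
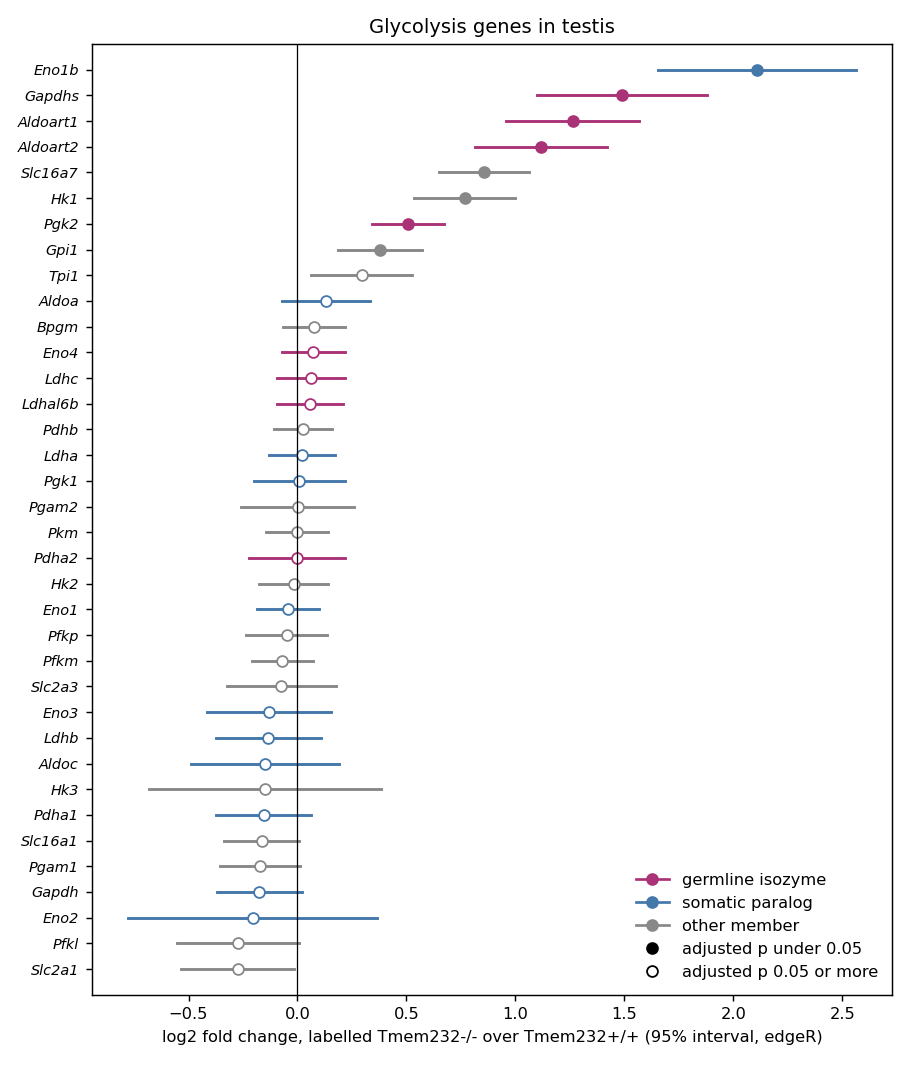
Log2 fold change of each of the 36 tested genes (x axis, libraries labelled Tmem232-/- over those labelled Tmem232+/+), with the 95% interval from edgeR as a line. Filled points are the 8 genes with an adjusted p under 0.05, all to the right of 0, and colours separate the germline isozymes, the somatic paralogs and the other genes.

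Split by class, 4 of the 8 germline isozymes were higher and the other 4 were not called. The 4 were the aldolases Aldoart1 and Aldoart2, the glyceraldehyde-3-phosphate dehydrogenase Gapdhs and the phosphoglycerate kinase Pgk2. The median log2 fold change of the 8 was 0.29, beside -0.054 over all tested genes. It falls in the gap between Eno4 and Pgk2, and was 0.51 with the 10 most abundant genes, Ldhc among them, left out. Of the 11 somatic paralogs 1 was higher (9.09%), Eno1b, a share near the 10.3% of all tested genes. Their median log2 fold change was -0.13. This median was -0.043 without Tmem232-/- replicate 2, -0.070 without Tmem232-/- replicate 3, and -0.024, -0.073 and -0.017 without Tmem232+/+ replicates 1, 2 and 3. Over all tested genes the medians of the same fits were -0.05, -0.056, -0.007, -0.044 and -0.026. With limma on log2(FPKM + 1) the median of the somatic paralogs was -0.076, beside -0.068 over all tested genes. Eno1b is a copy of Eno1, and without it 0 of 10 somatic paralogs were called in either direction by edgeR, DESeq2 or limma-voom. None of these 10 had an unadjusted p under 0.05 in edgeR, and their log2 fold changes lay between -0.21 and 0.13. Of the 17 other genes tested 3 were higher (17.6%), namely Hk1, Gpi1 and Slc16a7.

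Most markers of haploid germ cells were higher, as were 4 of the 8 germline isozymes. Of 12 markers of round spermatids 10 were higher, each by 2-fold or more, and their summed level was 1188 to 1437 CPM under the label Tmem232-/- and 776 to 1040.2 CPM under Tmem232+/+. Of 13 markers of elongating spermatids 12 were higher, each by 2-fold or more, and the sum was 1731 to 2688 CPM under the label Tmem232-/- and 663 to 1196 CPM under Tmem232+/+. Of 12 markers of spermatocytes 2 were lower, with a sum of 2671 to 3240.3 CPM under the label Tmem232-/- and 3018 to 3392 CPM under Tmem232+/+. Of 10 markers of spermatogonia 4 were lower, with a sum of 252 to 283 CPM under the label Tmem232-/- and 302 to 335 CPM under Tmem232+/+. Over all tested genes 10.3% were called higher and 1.46% lower, and 5.48% were higher by 2-fold or more at an unadjusted p under 0.05 in edgeR. The marker lists were chosen with earlier results of these data known. All of these markers were above 0 in at least 1 library. In whole testis more cells of a type and more RNA per cell cannot be told apart, and the part of these markers in the results on the isozymes was not tested.

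Markers of the somatic cells were mostly not called. In edgeR 0 of 12 Sertoli cell markers, 0 of 10 Leydig cell markers, 0 of 9 macrophage markers, 0 of 9 endothelial markers and 0 of 6 tested red blood cell markers were called. At an unadjusted p under 0.05 these counts were 3, 5, 0, 1 and 1. DESeq2 called 1 Sertoli cell marker and 2 Leydig cell markers and limma-voom 1 Leydig cell marker, all of them higher, and neither tool called a marker of the other 3 lists. The summed Leydig cell markers were at 558 to 806 CPM under the label Tmem232-/- and 387 to 626 CPM under Tmem232+/+. Of 8 markers of peritubular myoid cells 1 was higher and 2 were lower. For the epididymis 2 of 10 listed markers were tested and 1 was higher. The red blood cell markers summed to 151 to 598 CPM under the label Tmem232-/- and 305 to 597 CPM under Tmem232+/+.

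Glucose enters by carriers of the SLC2A (GLUT) family. Slc2a3 (GLUT3, chr6:122727809-122801640, minus strand), the high-affinity carrier of sperm and neurons, was at 1908, 2213, 2363 and 1818 CPM in replicates 1 to 4 labelled Tmem232-/- and at 2487, 2230.1, 1780.0 and 2246 CPM under Tmem232+/+. The groups overlapped (log2 fold change -0.075, SE 0.11, adjusted p = 0.72). Slc2a1 (GLUT1), the carrier of most tissues, was at 11.6, 9.10, 11.6 and 12.3 CPM against 12.5, 15.3, 13.9 and 12.5 CPM. In CPM each library labelled Tmem232-/- lay below all of those labelled Tmem232+/+. In FPKM they overlapped, with Tmem232-/- replicate 4 at 5.2 and Tmem232+/+ replicate 1 at 5.09. The difference did not pass the test over all genes (log2 fold change -0.27, SE 0.12, adjusted p = 0.18). Per length, Slc2a3 stood far above Slc2a1, with 579 ± 71.6 FPKM against 5.70 ± 0.660 FPKM (SD, n = 4) in the libraries labelled Tmem232+/+.

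Lactate and pyruvate cross the membrane on monocarboxylate carriers of the SLC16A (MCT) family. Slc16a7 (MCT2, chr10:125219270-125389465, minus strand), a carrier found on the sperm flagellum, was at 339, 309, 276 and 274 CPM under the label Tmem232-/- and at 161, 145, 184 and 172 CPM under Tmem232+/+. The groups did not overlap and the level was 1.81-fold higher (log2 fold change 0.86, SE 0.094, adjusted p = 9.9e-05). Its paralog Slc16a1 (MCT1) was at 62.5, 55.5, 62.0 and 63.6 CPM against 64.0, 76.7, 63.8 and 68.4 CPM. In CPM all libraries labelled Tmem232-/- were below all others. In FPKM the labels overlapped, with Tmem232-/- replicate 4 at 15.2 and Tmem232+/+ replicate 1 at 14.7. The gene was not called (log2 fold change -0.16, SE 0.078, adjusted p = 0.22). The unstranded reads cannot separate Slc16a7 from Gm47862, whose exons it overlaps on the opposite strand.

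Hexokinase traps glucose by phosphorylating it. Hk1 (chr10:62268855-62379908, minus strand), whose locus also makes shorter germ cell transcripts that the gene count does not separate, was at 437, 508, 447 and 388 CPM under the label Tmem232-/- against 301, 247, 223 and 275 CPM. The lowest library labelled Tmem232-/- exceeded the highest of the others, and the level was 1.70-fold higher (log2 fold change 0.77, SE 0.11, adjusted p = 0.00045). Hk2, the insulin-regulated form of muscle and fat, and Hk3, found mainly in blood cells, were not called, with log2 fold changes of -0.017 and -0.15. In the libraries labelled Tmem232+/+ Hk1 was at 73.0 ± 8.07 FPKM, Hk2 at 10.4 ± 0.790 FPKM and Hk3 at 0.415 ± 0.0858 FPKM (SD, n = 4), so Hk1 was the main hexokinase transcript. Hk1 shares exon sequence with the antisense gene Hk1os, and reads of both fall together in an unstranded library.

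Gpi1, the isomerase that makes fructose 6-phosphate (chr7:34201330-34230336, minus strand), was at 118, 120.1, 101 and 135 CPM against 84.2, 91.2, 95.4 and 93.8 CPM. The groups did not overlap, but the gap between them was narrow and the level was 1.30-fold higher (log2 fold change 0.38, SE 0.088, adjusted p = 0.014). Exons of Gpi1 also overlap those of Gm26762 on the other strand. The phosphofructokinases, which commit the sugar to glycolysis, were not called. Their log2 fold changes were -0.27 for the liver form Pfkl, -0.070 for the muscle form Pfkm and -0.050 for the platelet form Pfkp, and Pfkm and Pfkp were the most abundant at 62.4 ± 2.06 FPKM and 55.6 ± 6.42 FPKM (SD, n = 4) in the libraries labelled Tmem232+/+.

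Aldolase splits fructose 1,6-bisphosphate. Aldoart1 (chr4:72850583-72852634, minus strand) and Aldoart2 (chr12:55565239-55566896, plus strand) are single-exon retrogenes of Aldoa that are used in male germ cells. Aldoart1 was at 47.3, 42.7, 38.4 and 40.0 CPM in replicates 1 to 4 labelled Tmem232-/- and at 15.8, 13.1, 20.6 and 20.6 CPM under Tmem232+/+. Every library of the former was above every library of the latter, 2.399-fold on average (log2 fold change 1.26, SE 0.14, adjusted p = 0.0001). Aldoart2 was at 133, 108, 92.2 and 106 CPM against 50.2, 39.2, 60.9 and 52.3 CPM. It was 2.17-fold higher without overlap (log2 fold change 1.12, SE 0.14, adjusted p = 0.0002).

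The parent gene Aldoa, the aldolase of muscle and most tissues, was at 262, 242, 223 and 288 CPM under the label Tmem232-/- and at 219.6, 213, 259 and 234 CPM in the others. The groups overlapped (log2 fold change 0.13, SE 0.092, adjusted p = 0.4, 95% interval -0.070 to 0.34). The count of Aldoa also holds transcripts that sperm make from an alternative start of the gene. Aldoc, the brain form, had a log2 fold change of -0.15 and was low, at 1.84 ± 0.169 FPKM (SD, n = 4) in the libraries labelled Tmem232+/+. The coding sequences of Aldoart1 and Aldoart2 are 93.9% and 91.7% identical to that of Aldoa, and 7.8% and 0% of their 50-base words occur in it, so part of the reads of Aldoart1 could have been placed on Aldoa or the reverse.

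Triosephosphate isomerase is made from the single gene Tpi1. It was not called, at a log2 fold change of 0.29 (SE 0.11, adjusted p = 0.11), although its CPM did not overlap between the groups. In all, 9 of the 36 tested genes (25.0%) were without overlap and higher, against 11.8% of all tested genes. A further 3 (8.33%) were without overlap and lower in CPM, namely Pdha1, Slc2a1 and Slc16a1, against 6.88% of all. In FPKM Slc2a1 and Slc16a1 overlapped between the labels and Pdha1 did not.

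Glyceraldehyde-3-phosphate dehydrogenase makes the NADH of glycolysis. The germline form Gapdhs (chr7:30729775-30743681, minus strand) is anchored in the fibrous sheath and is required for sperm motility. It was at 238, 186, 167 and 210.0 CPM under the label Tmem232-/- and at 66.7, 49.1, 95.7 and 73.8 CPM under Tmem232+/+. The groups were well apart, with a 2.81-fold higher level (log2 fold change 1.49, SE 0.18, adjusted p = 0.00016). Of the 8 germline isozymes Gapdhs had the largest fold change. Its somatic paralog Gapdh, often used to normalise other transcripts, was at 341, 314, 319 and 390.0 CPM against 355, 379, 431 and 375 CPM, with overlap (log2 fold change -0.17, SE 0.088, adjusted p = 0.25). The coding sequences are 69.6% identical and share no 50-base word, so reads of the pair can be told apart. Exons of Gapdhs overlap those of the antisense gene Tmem147os. Exons of Gapdh overlap those of Iffo1 on the opposite strand, and the counts of Gapdh are not whole in any library. Among the genes that were not called, exons of Aldoa, Tpi1, Eno4, Ldhal6b and Pdha1 also overlap those of a gene on the opposite strand.

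Phosphoglycerate kinase yields the first ATP of the pathway. Pgk2 (chr17:40207015-40208640, minus strand) is a single-exon retrogene of Pgk1, which lies on chromosome X and is silenced in meiotic germ cells. Pgk2 was at 379, 379, 353 and 339.9 CPM under the label Tmem232-/- and at 284, 237, 245 and 256 CPM under Tmem232+/+. The groups did not overlap and the level was 1.42-fold higher (log2 fold change 0.51, SE 0.075, adjusted p = 0.00072), a smaller fold than those of the aldolases and Gapdhs. Pgk1 was at 25.4, 29.9, 33.1 and 30.2 CPM against 29.5, 31.8, 26.4 and 30.2 CPM, with overlap (log2 fold change 0.0092, SE 0.095, adjusted p = 0.96).

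Phosphoglycerate mutase moves the phosphate ahead of enolase. Pgam2, the form of muscle and testis, was at 553, 469, 452 and 547 CPM under the label Tmem232-/- and at 529, 417, 613 and 462 CPM in the others. The groups overlapped, and the fitted log2 fold change was 0.00050 (95% interval -0.26 to 0.26). Pgam1, the widely expressed form, was at 103, 93.6, 89.7 and 114 CPM against 107, 113, 121 and 110.2 CPM and was not called (log2 fold change -0.17, SE 0.083, adjusted p = 0.22). Bpgm, which makes 2,3-bisphosphoglycerate, had a log2 fold change of 0.077.

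Enolase forms phosphoenolpyruvate. Eno4, the enolase of the sperm flagellum (chr19:58943425-58971421, plus strand), was at 65.7, 64.2, 61.1 and 60.3 CPM under the label Tmem232-/- and at 63.5, 56.9, 57.1 and 61.4 CPM under Tmem232+/+. The groups overlapped (log2 fold change 0.073, SE 0.065, adjusted p = 0.52, 95% interval -0.070 to 0.22). Eno1, the form of most tissues, was at 258, 269, 259 and 285 CPM against 295, 265, 272 and 271 CPM and was not called (log2 fold change -0.042, SE 0.065, adjusted p = 0.72). The neuronal form Eno2 and the muscle form Eno3 had log2 fold changes of -0.21 and -0.13.

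Eno1b, an intron-poor copy of Eno1 on chromosome 18, had the largest fold change of the 36 tested genes and a low level. It was at 7.79, 8.10, 5.82 and 7.25 CPM under the label Tmem232-/- and at 1.37, 1.15, 2.28 and 1.90 CPM in the others, which is 19.0 to 129 counts per library. It was 4.31-fold higher without overlap (log2 fold change 2.11, SE 0.21, adjusted p = 5.3e-05). The value is uncertain because 99.4% of the coding sequence of Eno1b is identical to that of Eno1 and 80.7% of its 50-base words occur there, and because its counts are not whole in any library. Eno1 was at 174 ± 4.36 FPKM and Eno1b at 1.07 ± 0.331 FPKM (SD, n = 4) in the libraries labelled Tmem232+/+. A placement of Eno1 reads on Eno1b was not tested.

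Pyruvate kinase closes glycolysis with ATP, and Pkm was its transcript in these testes at 94.4 ± 7.68 FPKM against 96.8 ± 3.38 FPKM (SD, n = 4), with a log2 fold change of -0.00060 (95% interval -0.14 to 0.14). Lactate dehydrogenase converts pyruvate and lactate into each other. The germline form Ldhc (chr7:46861203-46878142, plus strand) was the most abundant of the 38 transcripts per length, at 2476 ± 38.3 FPKM under the label Tmem232-/- and 2436 ± 138 FPKM under Tmem232+/+ (SD, n = 4). Its CPM was 2691, 2685, 2629 and 2643 against 2807, 2329.6, 2462 and 2599. The groups overlapped (log2 fold change 0.062, SE 0.07, adjusted p = 0.62, 95% interval -0.092 to 0.22), and the interval ends below the fold change fitted for any of the called genes.

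Ldhal6b (chr17:5417323-5418767, minus strand), a single-exon lactate dehydrogenase gene of the testis, was at 869, 788, 795 and 803 CPM against 817, 730.1, 826 and 753 CPM. It was not called (log2 fold change 0.058, SE 0.068, adjusted p = 0.63, 95% interval -0.092 to 0.21). Ldha, the muscle form, was at 977, 1003, 963 and 968 CPM against 1065, 895, 926 and 971 CPM, also with overlap (log2 fold change 0.021, SE 0.069, adjusted p = 0.88). Ldhb, the heart form, had a log2 fold change of -0.13 (adjusted p = 0.48), and without Tmem232-/- replicate 4 it was called lower, at -0.26 (adjusted p = 0.026).

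Pyruvate dehydrogenase passes pyruvate on to the mitochondrial citric acid cycle. Its E1 alpha subunit has an X-linked gene, Pdha1, and a single-exon germline retrogene, Pdha2 (chr3:141210004-141212355, minus strand). Pdha2 was at 286, 229.6, 234 and 223 CPM under the label Tmem232-/- and at 248, 213, 275 and 239 CPM in the others. The groups overlapped (log2 fold change -0.0013, SE 0.1, adjusted p = 1, 95% interval -0.22 to 0.22). Pdha1 was at 11.98, 12.2, 12.02 and 12.4 CPM against 13.1, 15.7, 12.5 and 12.6 CPM. It was lower in all libraries labelled Tmem232-/- but was not called (log2 fold change -0.15, SE 0.099, adjusted p = 0.36). The beta subunit Pdhb had a log2 fold change of 0.024.

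**Figure D2:**
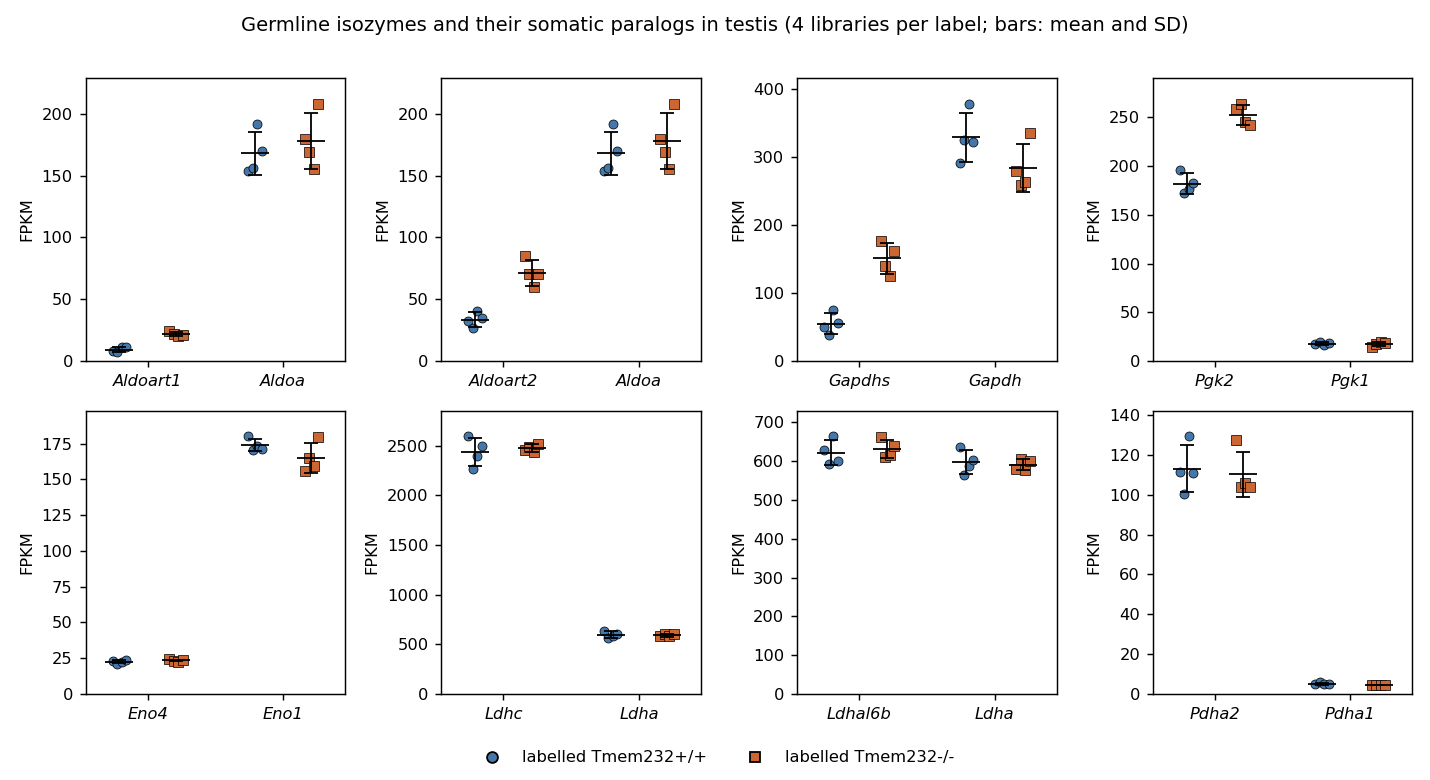
FPKM of each germline isozyme and its somatic paralog (y axes from 0, a scale for each pair), with 1 point per library, 4 libraries per label, and the mean and SD as bars. The libraries labelled Tmem232-/- lie above the others for Aldoart1, Aldoart2, Gapdhs and Pgk2, and the points overlap for Eno4, Ldhc, Ldhal6b and Pdha2.

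Per length, the order of the transcripts in the libraries labelled Tmem232+/+ began with Ldhc. Pgam2 (697 ± 115 FPKM), Ldhal6b (621 ± 32.3 FPKM), Ldha (598 ± 30.7 FPKM) and Slc2a3 (579 ± 71.6 FPKM) followed, and within these 4 neighbours in the order differed by less than the larger of their SDs (n = 4). Gapdh (329 ± 35.99 FPKM) and Pgk2 (182 ± 10.5 FPKM) came next. In every library of both labels Ldhc, Pgk2 and Pdha2 lay above their somatic paralog, and Aldoart1, Aldoart2, Gapdhs and Eno4 lay below theirs. Ldhal6b and Ldha stood level.

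To compare paralogs free of library scaling, the log2 ratio of their FPKM was taken within each library, with 0.1 FPKM added to both, for 11 pairs. Of these, 8 set a germline isozyme over a somatic paralog, and 3 pair carriers or mutases. The p-values of these ratios were not adjusted over the pairs, and 0.029 is the smallest two-sided p that 4 libraries against 4 allow. Of the 8 germline ratios 4 were higher without overlap, as was 1 of the other 3, that of Slc16a7 over Slc16a1. In each of these pairs the first gene was itself called and its partner was not, so the ratios restate those calls. The share of other gene pairs without overlap was not computed. Of all tested genes 11.8% were themselves without overlap and higher in CPM.

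Gapdhs over Gapdh moved most. The log2 ratio was -0.66, -0.89, -1.07 and -1.04 under the label Tmem232-/- and -2.55, -3.08, -2.33 and -2.50 under Tmem232+/+, a difference of 1.70 (SE 0.19, exact two-sided permutation test, p = 0.029). Gapdhs thus stood at 0.530 of the level of Gapdh in the former and 0.163 in the latter. Aldoart1 over Aldoa was -2.88, -2.91, -2.94 and -3.27 against -4.21, -4.42, -4.08 and -3.92, a difference of 1.16 (SE 0.14, exact two-sided permutation test, p = 0.029). Aldoart2 over Aldoa differed by 1.00 (SE 0.13, exact two-sided permutation test, p = 0.029). Pgk2 over Pgk1 was 4.11, 3.88, 3.63 and 3.70 against 3.48, 3.11, 3.42 and 3.29, a difference of 0.50 (SE 0.13, exact two-sided permutation test, p = 0.029). Slc16a7 over Slc16a1 was 3.09, 3.07, 2.72 and 2.75 against 1.83, 1.45, 2.18 and 1.87, a difference of 1.07 (SE 0.18, exact two-sided permutation test, p = 0.029). In all 5 pairs the ratio was higher in each of the 4 libraries labelled Tmem232-/- than in any of the other 4.

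The other 6 ratios overlapped between the labels. Ldhc over Ldha was 2.09, 2.04, 2.07 and 2.07 against 2.02, 2.01, 2.02 and 2.05, a difference of 0.041 (SE 0.012, exact two-sided permutation test, p = 0.057), and the groups overlapped by 1 library. Eno4 over Eno1 differed by 0.13 (SE 0.058, exact two-sided permutation test, p = 0.057) and Ldhal6b over Ldha by 0.041 (SE 0.057, exact two-sided permutation test, p = 0.43). Pdha2 over Pdha1 differed by 0.14 (SE 0.17, exact two-sided permutation test, p = 0.46). Slc2a3 over Slc2a1 differed by 0.21 (SE 0.22, exact two-sided permutation test, p = 0.37) and Pgam2 over Pgam1 by 0.19 (SE 0.11, exact two-sided permutation test, p = 0.2).

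**Figure D3:**
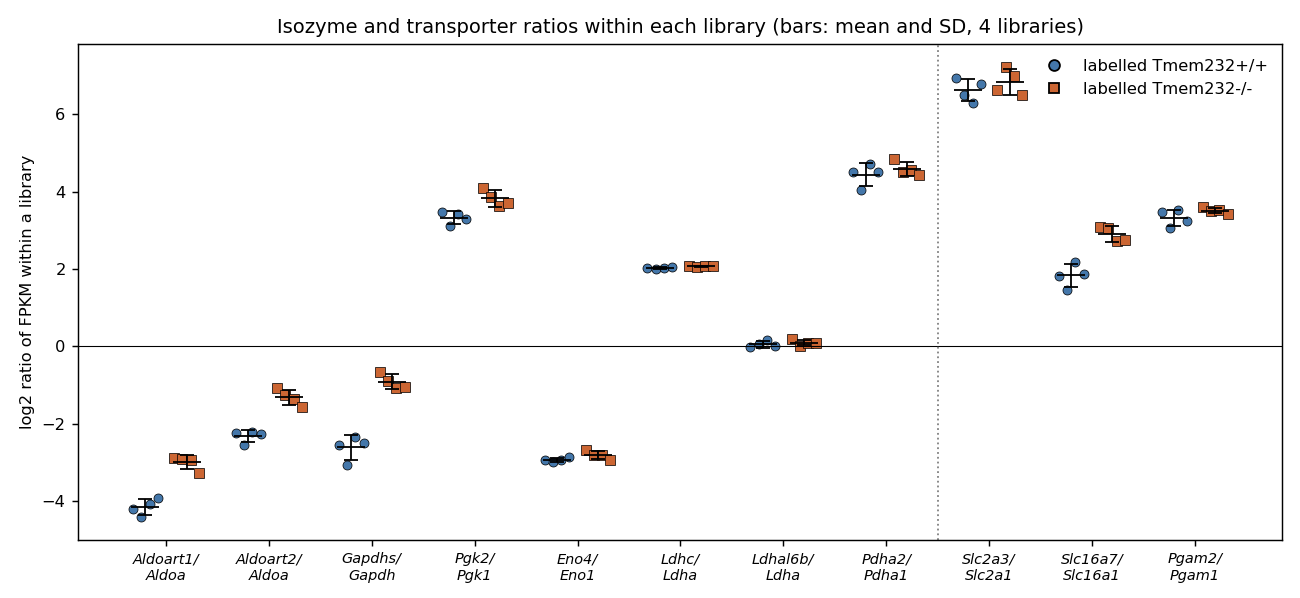
Log2 ratio of FPKM within each library (y axis) for the 8 germline pairs, left of the dotted line, and for 3 other pairs of carriers and mutases, right of it, with 1 point per library and the mean and SD of 4 libraries as bars. The libraries labelled Tmem232-/- lie above the others without overlap for Aldoart1, Aldoart2, Gapdhs, Pgk2 and Slc16a7.

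As a share of all transcripts measured for a step, the germline forms of aldolase made up 34.3% ± 2.997 (SD, n = 4) under the label Tmem232-/- and 20.2% ± 1.73 under Tmem232+/+. The libraries ran from 30.5% to 37.7% against 17.6% to 21.3%. Gapdhs made up 34.7% ± 3.03 against 14.2% ± 2.55 of its step. Here the libraries ran from 32.2% to 38.8% against 10.6% to 16.5%. Pgk2 held 93.4% ± 0.890 against 91.0% ± 0.953 of its step, again without overlap. The share of the germline form was 9.59% ± 0.476 against 8.88% ± 0.479 for enolase, 80.7% ± 0.621 against 79.9% ± 0.299 for lactate dehydrogenase and 96.1% ± 0.447 against 95.6% ± 0.900 for pyruvate dehydrogenase E1 alpha, and these groups overlapped. Shares restate the same FPKM values as the ratios and are given as a description.

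**Figure D4:**
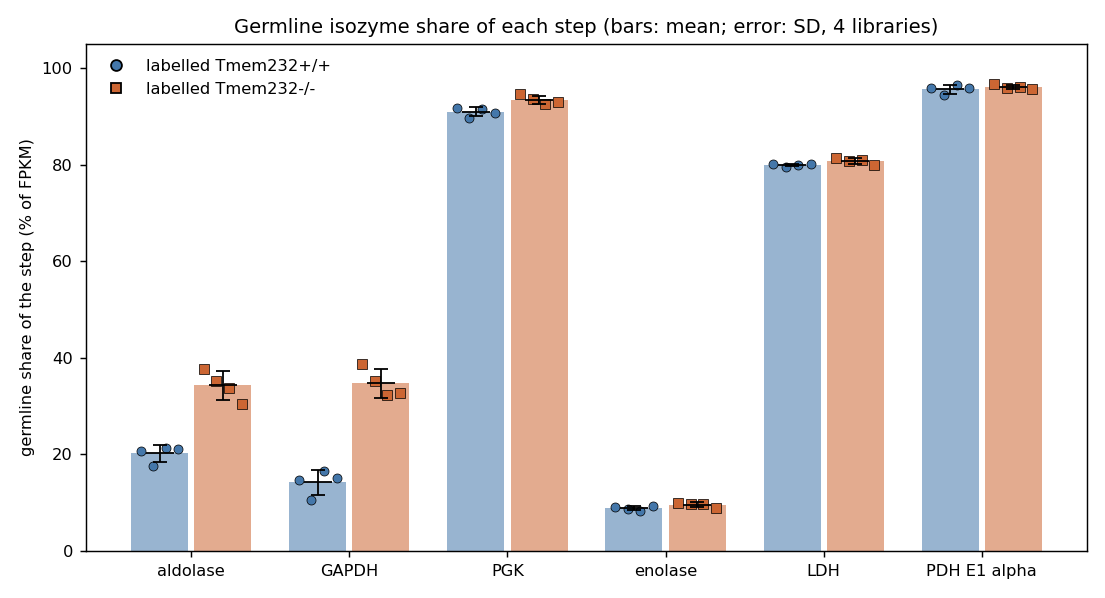
Share of the germline isozymes in the summed FPKM of each step (y axis, %), as the mean of 4 libraries per label with the SD, and 1 point per library. The mean share was 91.0% or more for PGK and PDH E1 alpha under both labels, and the groups were apart for aldolase, GAPDH and PGK.

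Among 69 other genes of glucose, glycerol, pentose phosphate and pyruvate metabolism, 68 were in the table and 61 were tested. Of the 61, 8 were higher (13.1%) and 0 lower, against the 10.3% and 1.46% of all tested genes, so this share was near the background. In the lower direction 7 had an unadjusted p under 0.05 in edgeR, and DESeq2 and limma-voom called 0. Gpd2 and G6pd2 were among those higher by 2-fold or more. Gpd2, the mitochondrial glycerol-3-phosphate dehydrogenase that feeds electrons from glycolysis to the respiratory chain, was at 144, 150.3, 127 and 129 CPM under the label Tmem232-/- and at 49.4, 38.3, 52.8 and 53.1 CPM in the others. It was 2.84-fold higher without overlap (log2 fold change 1.51, SE 0.11, adjusted p = 2e-05). G6pd2, an autosomal retrogene of the X-linked glucose-6-phosphate dehydrogenase gene G6pdx, was at 15.3, 15.4, 14.8 and 11.3 CPM against 5.79, 4.54, 5.70 and 6.63 CPM (log2 fold change 1.33, SE 0.14, adjusted p = 9.4e-05). G6pdx itself was not called (log2 fold change -0.11, SE 0.094, adjusted p = 0.51), and how much sequence the pair shares was not examined.

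Pdk3, a kinase that switches pyruvate dehydrogenase off, was higher (log2 fold change 0.49, SE 0.078, adjusted p = 0.0012). Pfkfb3, which sets the level of the phosphofructokinase activator fructose 2,6-bisphosphate, was higher (log2 fold change 0.46, SE 0.079, adjusted p = 0.0021), and so was the glycerol kinase-like gene Gykl1 (log2 fold change 0.36, SE 0.079, adjusted p = 0.0097). Also called were Galm, which interconverts the anomers of sugars (log2 fold change 0.52, SE 0.14, adjusted p = 0.028), and Pdp1, the phosphatase that switches pyruvate dehydrogenase on (log2 fold change 0.27, SE 0.07, adjusted p = 0.03). They are named after their values were seen, and their calls were lost in 7 and 5 of 17 alternative analyses.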

How the data were processed

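RNA from whole testes of 8 mice aged 2 months was sequenced, with 4 libraries labelled Tmem232-/- and 4 labelled Tmem232+/+, 1 library per mouse. The authors used an RNA kit that does not mark strand, removed low-quality reads, mapped the rest to GRCm38.p6 (HISAT, Bowtie2) and counted with StringTie and featureCounts, and versions are not given in the sources used here. The authors deposited estimated counts without normalization, of which between 10.7% and 11.2% per library are not whole, and these were rounded. FPKM as deposited was taken as corrected for transcript length and library total. On genes with 1 transcript, FPKM per count was compared between libraries, which checks the scaling by total but not by length. That scaling was near the totals but not equal to them. For Tmem232-/- replicate 4 over replicate 1 the median was 0.964, against 0.971 from the totals. Fold changes, p-values and q-values of the authors' own DESeq2 comparison were not used.

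Counts were analysed in R 4.3.3 with edgeR 4.0.16 (filterByExpr, TMM, quasi-likelihood test without covariates), with Benjamini-Hochberg adjustment over 15787 genes. Ratios were compared by exact two-sided permutation over all 70 arrangements, in Python 3.11.15 with scipy 1.17.1. Values of every library are given for the germline isozymes, their ratio partners and the other called genes among the 38. Of neighbouring pathways, genes called at 2-fold and up to 3 more with the smallest adjusted p were named, apart from a gene not reported here. The genes, their classes and all lists were chosen with earlier results of these data known. The steps were tested on simulated data.

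Alternatives were DESeq2 1.42.0, other scalings (DESeq2 size factors, library size, TMM without the 10 most abundant genes), no filter or at least 10 counts per library, limma-voom (limma 3.58.1), limma on log2(FPKM + 1), a replicate block, each library left out in turn, and for ratios TMM CPM or 1 FPKM added. Coding sequences were aligned with biopython 1.88. Protein sequences were not used here. Limits from a count of 0 cover counting error only.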

Additional observations from a re-analysis of the deposited data

Results flagged for a closer look

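In 72 groups of 4 libraries (36 tested genes under 2 labels) a single library stood far from the other 3 by Dixon's test in 2, where chance gives about 1 in 20 groups, or 3.6. Aldoc, the brain aldolase, was at 5.36 CPM in Tmem232+/+ replicate 1 and between 4.24 and 4.37 CPM in the other 3 libraries of that label, with a gap of 0.883 of the range. Ldhb, the heart form of lactate dehydrogenase, was at 219 CPM in Tmem232-/- replicate 4 and between 153 and 161 CPM in the other 3, with a gap of 0.877 of the range. Neither gene was called with all libraries.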

How the results depend on the processing

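All 8 called genes kept their direction and their call in each of 17 alternative analyses, 136 fits in all, and the largest adjusted p was 0.0496, for Gpi1 with limma on log2(FPKM + 1). The 11 ratios had 121 alternatives. With a library left out, each difference moved by less than the spread between replicates, and pairing by number leaves the difference as it is. With TMM CPM or 1 FPKM added, each difference kept its direction and its side of the 0.05 threshold in the permutation test. The test of a ratio could not pass the threshold with a library left out or with pairing by number, where the smallest two-sided p is 0.057 and 0.12, so those alternatives say nothing about its p. The median log2 fold change of the germline isozymes was 0.51 with the 10 most abundant genes left out, because Ldhc was among those left out. Without a filter 1 gene met the rule for 2-fold lower, Pklr, which has at most 5 counts per library and gives no usable fold (adjusted p = 0.25), and with limma on log2(FPKM + 1) 1 neighbouring gene was lower, Pgd at -0.26 (adjusted p = 0.042). With each library left out in turn, 0 to 1 of the 38 genes, 0 to 1 of the somatic paralogs and 0 to 3 of the neighbouring genes were lower, and all of these came without Tmem232-/- replicate 4 (Ldhb, and Tkt, Taldo1 and Slc2a8). Tpi1 passed the threshold with DESeq2 alone (log2 fold change 0.32, adjusted p = 0.0366).

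Alternatives were fitted gene by gene for the genes given by library, for Tpi1 and for the called neighbouring genes. Of these the signs of 6 uncalled genes near 0 turned. Pdha2 was at 0.022 with DESeq2, 0.022 with its size factors, 0.040 without a filter and 0.0047 with at least 10 counts. With library size alone Pgk1 was at -0.024, Pgam2 at -0.032 and Ldha at -0.012, and with limma on log2(FPKM + 1) they were at -0.027, -0.025 and -0.016. Eno1 was at 0.0015 without a filter. With each library left out the log2 fold changes ran from -0.049 to 0.077 for Pgk1, -0.082 to 0.14 for Pgam2, -0.061 to 0.030 for Eno1, -0.014 to 0.11 for Ldha, -0.088 to 0.094 for Pdha2 and -0.14 to 0.035 for Slc2a3. The median over all tested genes moved with the setting as well. It was -0.054 in the main fit, -0.087 with library size alone and -0.068 with limma on log2(FPKM + 1). With DESeq2 it was -0.029, and without a filter 0. The cause of the turned signs was not tested. Ldhc and Slc2a3 could not be fitted with the 10 most abundant genes left out.

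Labels share replicate numbers 1 to 4 but nothing ties the animals. Deviations of same-numbered libraries correlated at -0.061, 0.072, -0.332 and -0.105 across genes, nor did each library correlate best with its own number, so the numbers did not pair the samples. With the replicate number as a block 8 of the 36 tested genes were higher and 0 lower, and 6 of the neighbouring genes were higher. The log2 fold change of Eno1b shrinks with log2(FPKM + 1), to 1.42, since 1 is large beside its level. Pklr, Hkdc1, Hk3 and Eno2 are limited by depth, with at most 25 counts per library.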
